A study of Mus musculus with 12 samples.

Results

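The p53 target genes followed here are Cdkn1a, Mdm2, Ccng1, Trp53inp1, Bax, Bbc3, Gadd45a, Sesn1, Btg2 and Phlda3, 10 textbook targets of the transcription factor p53, taken by gene symbol with every array probe that carries it. Of these 10 genes, 9 had a probe (22 probes) and 8 had a probe that passed the detection filter (20 probes), among 19057 gene symbols with a probe and 10082 with a detected one. The cells were NIH-3T3, an established line of mouse embryo fibroblasts, carrying a lentiviral transgene for the nuclear receptor PPARγ2 and kept in the selection drug blasticidin. The 4 groups were cells with E157D PPARγ2 in rosiglitazone, E157D PPARγ2 in DMSO, wild-type (WT) PPARγ2 in rosiglitazone and WT PPARγ2 in DMSO. Rosiglitazone, a thiazolidinedione that binds and activates PPARγ, was given at 20 µM for 24 hours, with an equal volume of the solvent DMSO as its control. Each group holds 3 arrays, and the labels give 3 independent experiments; all 12 arrays come from transduced cells, and no group without a PPARγ2 transgene is part of the comparisons. E157D replaces a glutamate of the receptor by an aspartate, and the question of the study was how this change alters what the receptor does to transcription.

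p53 is a DNA-binding tumour suppressor that is held low by the ubiquitin ligase Mdm2 and is stabilised by DNA damage and other stresses. It binds pairs of 10-base half-sites near its targets, and these targets stop the cell cycle, start apoptosis, adjust metabolism and, through Mdm2, switch p53 off again. Several of them also answer to other factors, among them the FOXO factors, which act downstream of growth factor signalling. In fibroblasts, Cdkn1a, whose product p21 blocks cyclin-dependent kinases, is the classical mediator of p53-dependent arrest.

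The promoter sequences are shown to set the p53 sites near the members' starts beside their values. RefSeq promoter windows (GRCm38.p6; 250 bases before to 50 after each annotated start, 13 windows for 9 of the 10 members, all but Trp53inp1) were searched on both strands. A full p53 site was taken as a pair of adjacent half-sites with an exact core and at most 1 outer base off, a rule chosen after a stricter search had missed the adjacent pair of Cdkn1a. It was found in 1 of the 13 member windows, that of Cdkn1a, and in 18 of all 32851 windows (0.0548%). Because the rule was set to take in the Cdkn1a pair, that member count cannot be read against the share of all windows. The stretch before the upstream start of Cdkn1a, chr17:29090729-29090978 on the plus strand, has this site in capitals, from base -51 to base -32; another half-site further upstream in this stretch is not in capitals.
Cdkn1a: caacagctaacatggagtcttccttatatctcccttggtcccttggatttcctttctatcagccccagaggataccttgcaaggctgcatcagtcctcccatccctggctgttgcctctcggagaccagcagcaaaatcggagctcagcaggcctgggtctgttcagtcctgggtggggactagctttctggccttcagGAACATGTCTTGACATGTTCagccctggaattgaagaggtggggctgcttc
At least 1 half-site was present in 6 of the 13 member windows and in 8.36% of all windows. The next stretches carry half-sites in capitals, from members that rose (Gadd45a), fell (Sesn1) or were not called (Mdm2, Ccng1), on chr6:67037428-67037457 (minus), chr10:41887256-41887285 (plus), chr10:117710925-117710954 (minus) and chr11:40755452-40755481 (minus), in that order.
Gadd45a: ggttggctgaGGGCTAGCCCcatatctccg
Sesn1: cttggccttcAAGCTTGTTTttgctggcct
Mdm2: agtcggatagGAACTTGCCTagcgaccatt
Ccng1: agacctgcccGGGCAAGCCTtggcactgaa
The FOXO core GTAAACA was present in 3 of the 13 member windows (1 each of Sesn1, Bbc3 and Mdm2, the last not shown) and in 3.65% of all windows. It is in capitals in the plus-strand stretches of Sesn1 (chr10:41810586-41810612) and Bbc3 (chr7:16310084-16310110), where it reads on the opposite strand.
Sesn1: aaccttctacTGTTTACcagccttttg
Bbc3: ctggcgggttTGTTTACaaacaatggg
A match to letters is not a bound site, and the absence of one says nothing of the factor beyond this window. Of the 18 genes with a full site, only Cdkn1a, Rps27l and Gtse1 had a detected probe. The brightest probe of none of the 3 was called in any of the 5 comparisons by limma, and for Rps27l the difference between rosiglitazone and DMSO was 0.25 ± 0.12 in E157D cells and 0.17 ± 0.12 in WT cells (log2 ± SE).

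All values are normalized log2 intensities of single probes, so levels are compared between arrays of 1 probe and not between genes. Each array detected between 36.7% and 39.6% of its 45281 probes, and arrays of a group correlated at 0.9864 to 0.9924. The fibroblast markers Col1a1, Col1a2, Col3a1, Vim, Thy1 and Pdgfrb were detected on all 12 arrays, while none of the 3 leukocyte markers with a probe was detected on any. The epithelial markers Epcam and Krt18 and the endothelial markers Pecam1 and Kdr were detected on no array, while epithelial Krt8 was detected on 11 arrays, epithelial Cdh1 on 3 and endothelial Cdh5 on 1. The 3 probes named for Pparg were detected on 0 of 12 arrays, so they do not report the transgene and do not check the receptor labels. The adipocyte markers Adipoq, Plin1, Cidec and Fabp4, which are classical PPARγ targets, had a summed linear intensity of 156.4 to 207.1 in E157D cells with rosiglitazone, 40.1 to 42.4 in E157D cells with DMSO, 1759.7 to 2365.5 in WT cells with rosiglitazone and 82.2 to 125.9 in WT cells with DMSO. The fibroblast marker sum was 22216.6 to 25462.6, 29999.8 to 32170.3, 18125.6 to 22099.1 and 29107 to 30694.5 in those 4 groups. Of the 4 adipocyte markers, 2 were detected on no array of E157D cells with rosiglitazone and 3 on none of WT cells with DMSO. All 4 were detected on no array of E157D cells with DMSO, so their sum there is background signal. Both marker sums moved with the drug, as some members below did in WT cells, and their part in the members' values was not tested. In such bulk RNA, fewer cells with a transcript and less transcript per cell cannot be told apart.

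In WT cells, rosiglitazone moved the p53 targets in both directions. All probes of Sesn1 and Trp53inp1 fell, both probes of Gadd45a and 1 probe each of Phlda3 and Cdkn1a rose, and no probe of Mdm2, Ccng1 or Bbc3 was called. Of the 20 member probes, 4 were called higher and 5 lower (adjusted p under 0.05, limma with Benjamini-Hochberg adjustment over all probes), beside 11.5% and 12% of all 18921 probes tested (23.5% in either direction). Counted by the brightest probe, 1 of 8 genes was higher and 2 were lower, and the median change of these 8 was -0.07 beside -0.02 over all probes (log2). The rosiglitazone and DMSO arrays did not overlap for 7 probes that were higher and 5 that were lower, beside 18.6% and 20.1% of all probes (38.7% in either direction). In E157D cells, 0 of the 20 member probes were called by limma, beside 3.28% of all probes (1.94% higher and 1.34% lower), and 3 reached an unadjusted p under 0.05. Their arrays did not overlap for 3 higher and 3 lower probes, beside 11.7% and 11.6% of all probes (23.3% in either direction). The test of the difference between the responses, E157D minus WT, called 0 of 20 member probes beside 1.81% of all probes (0.634% higher and 1.17% lower), with 6 at an unadjusted p under 0.05. With the experiment number as a block, 1 member probe was called lower in E157D cells, beside 461 of all 18921 probes. For the difference between the responses the block called 1 lower, beside 298.

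**Figure D1:**
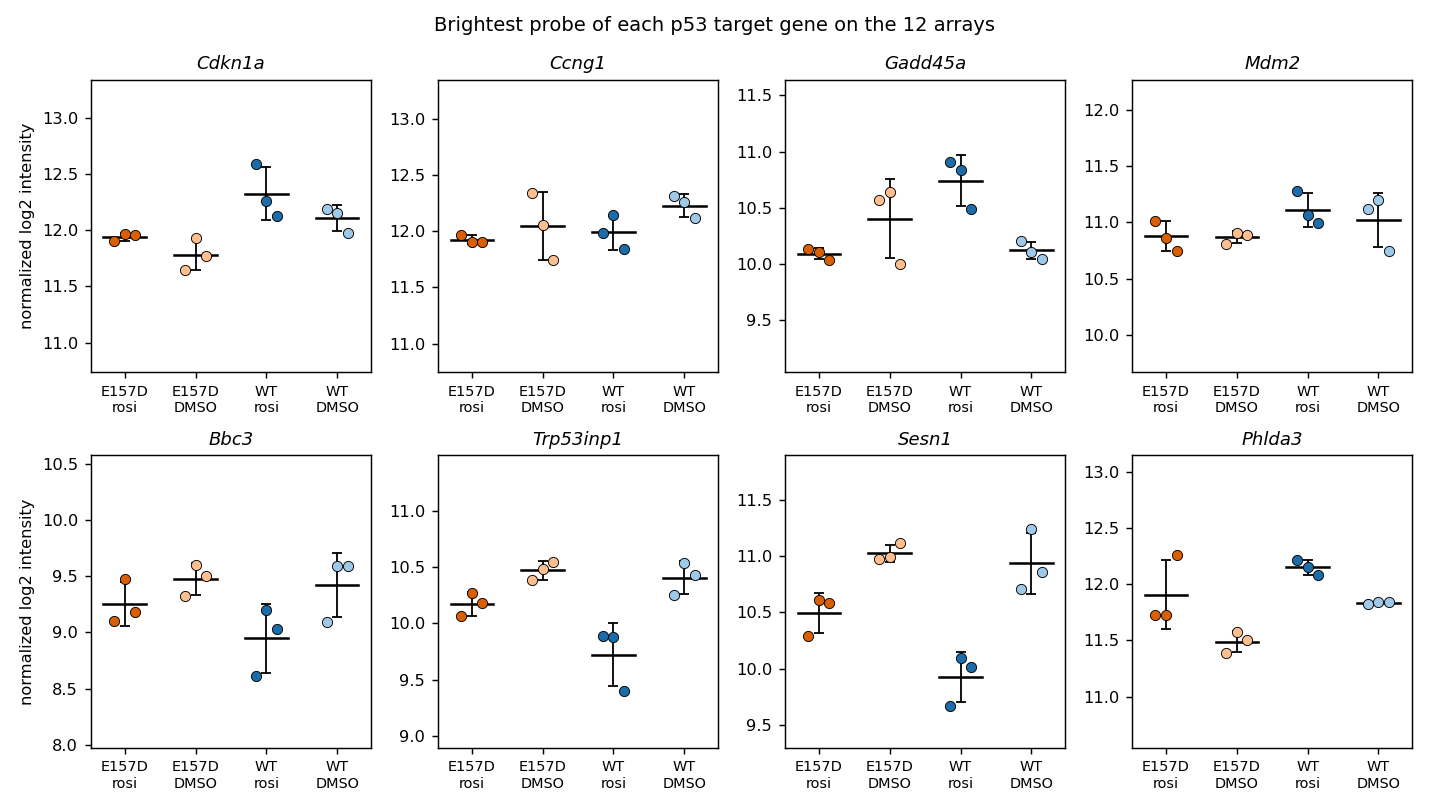
Normalized log2 intensity (vertical axis, each panel spanning the same range) of the brightest probe of the 8 detected p53 targets in E157D and WT cells with rosiglitazone or DMSO; points are arrays, lines and bars are means ± SD (n = 3). The group means of Sesn1 and Trp53inp1 are lowest in WT cells with rosiglitazone, and that of Gadd45a is highest there.

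Cdkn1a (chr17:29090979-29100722, GRCm38.p6), the gene of p21, was measured by 3 probes, detected on all 12 arrays. Its brightest probe read 11.90, 11.96 and 11.96 in E157D cells with rosiglitazone and 11.65, 11.93 and 11.77 in E157D cells with DMSO. It read 12.59, 12.26 and 12.13 in WT cells with rosiglitazone and 12.19, 12.16 and 11.98 in WT cells with DMSO. On this probe the drug groups overlapped in both cell types, and the WT arrays were the higher ones under either treatment. The drug difference was 0.16 ± 0.13 in E157D cells (adjusted p = 0.60) and 0.22 ± 0.13 in WT cells (adjusted p = 0.27; 95% interval -0.07 to 0.51). The dimmest of the 3 probes was called higher with the drug in WT cells (0.38 ± 0.11, adjusted p = 0.031), where it read 9.58, 9.80 and 9.55 with rosiglitazone and 9.39, 9.26 and 9.15 with DMSO. That call was lost without WT rosiglitazone array 1 or 2, or WT DMSO array 2 or 3, with adjusted p up to 0.11. In WT cells the middle probe had 0.27 ± 0.11 (adjusted p = 0.11), without overlap, while in E157D cells its drug groups overlapped. The dimmest probe did not overlap in E157D cells either and was not called there. It read 9.18, 9.28 and 9.34 with rosiglitazone and 8.95, 9.12 and 9.01 with DMSO. Across the 12 arrays the 3 probes correlated at 0.82 to 0.91.

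In rosiglitazone, Cdkn1a was lower in E157D cells than in WT cells on 2 of its 3 probes. The middle and dimmest probes had -0.46 and -0.38 (adjusted p = 0.017 and 0.039), and the brightest had -0.38 ± 0.13 (adjusted p = 0.068), which passed the threshold without WT rosiglitazone array 3. In DMSO the 3 probes had -0.33, -0.31 and -0.24 with none called (adjusted p 0.33 to 0.50), although all E157D arrays read below all WT arrays on each. The call of the middle probe was lost without WT rosiglitazone array 1 or E157D rosiglitazone array 1, and that of the dimmest without any 1 of the 6 arrays (adjusted p up to 0.13). With median scaling both calls were lost (adjusted p = 0.15 and 0.42), and with no detection filter that of the dimmest probe was lost (0.051).

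Gadd45a (chr6:67035096-67037407), a stress sensor that binds PCNA and p21 and acts in arrest and DNA repair, was measured by 2 probes. The brighter read 10.13, 10.10 and 10.03 in E157D cells with rosiglitazone and 10.57, 10.64 and 10.00 in E157D cells with DMSO. In WT cells it read 10.90, 10.84 and 10.49 with rosiglitazone and 10.20, 10.11 and 10.05 with DMSO. The WT drug arrays all lay above the WT DMSO arrays, whereas in E157D cells DMSO array 3 lay below the drug arrays and the other DMSO arrays above them. Gadd45a rose with the drug in WT cells, by 0.62 ± 0.17 (1.54-fold, adjusted p = 0.018) on the brighter probe and 0.62 ± 0.19 (adjusted p = 0.030) on the dimmer, and had -0.31 ± 0.17 (adjusted p = 0.37) and -0.16 ± 0.19 (adjusted p = 0.74) in E157D cells. The difference between the responses was -0.93 ± 0.24 (adjusted p = 0.075) and -0.78 ± 0.26 (adjusted p = 0.18), short of the threshold on both probes. The brighter probe passed it without E157D DMSO array 3, without background correction, with the authors' values and with the filter set to probes detected on all 12 arrays. That probe also passed it with the experiment number as a block. In rosiglitazone, E157D cells were lower than WT cells by -0.65 ± 0.17 (adjusted p = 0.019) and -0.71 ± 0.19 (adjusted p = 0.020), and in DMSO the 2 probes had 0.28 and 0.06 with neither called. The brighter probe's drug call in WT cells was lost without WT rosiglitazone array 1 or 2 or WT DMSO array 2 or 3 (adjusted p up to 0.074), and its receptor call without WT rosiglitazone array 1 or 2 or E157D rosiglitazone array 2 or 3 (up to 0.076). The dimmer probe's drug call was lost without WT rosiglitazone array 1 or WT DMSO array 2 or 3 (up to 0.12), and its receptor call without WT rosiglitazone array 1 or E157D rosiglitazone array 3 (up to 0.087). With median scaling both receptor calls were lost (adjusted p = 0.074 and 0.064).

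Btg2 (chr1:134074865-134079155), an antiproliferative target of p53, had 1 probe, which was detected on 0 of 12 arrays and is not tested. Ccng1 (chr11:40748552-40755309), the gene of cyclin G1, which recruits a phosphatase to Mdm2, had 3 probes on which no comparison was called. Its brightest probe read 11.97, 11.90 and 11.91 in E157D cells with rosiglitazone, 12.34, 12.06 and 11.74 in E157D cells with DMSO, 11.98, 12.15 and 11.84 in WT cells with rosiglitazone and 12.31, 12.26 and 12.11 in WT cells with DMSO. The drug differences of that probe had 95% intervals of -0.44 to 0.20 in E157D cells and -0.56 to 0.08 in WT cells.

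Mdm2 (chr10:117688875-117710758), the ligase that p53 induces and that degrades p53, had 3 probes, of which 1 was detected on a single array and left out. The brighter of the others read 11.01, 10.86 and 10.75 in E157D cells with rosiglitazone, 10.81, 10.91 and 10.89 in E157D cells with DMSO, 11.28, 11.07 and 10.99 in WT cells with rosiglitazone and 11.12, 11.20 and 10.75 in WT cells with DMSO. The groups overlapped in both drug comparisons and in both receptor comparisons. The drug difference was 0.01 (95% interval -0.29 to 0.31) in E157D cells and 0.09 (-0.21 to 0.39) in WT cells. On the second probe the E157D DMSO arrays (10.32, 10.23 and 10.07) lay below the WT DMSO arrays (10.55, 10.73 and 10.50), with -0.38 ± 0.12 and an adjusted p of 0.23.

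Bbc3 (chr7:16308398-16318334) encodes PUMA, a BH3-only protein that binds antiapoptotic BCL2 proteins. Its brightest probe read 9.10, 9.47 and 9.18 in E157D cells with rosiglitazone and 9.32, 9.60 and 9.50 in E157D cells with DMSO. It read 8.61, 9.20 and 9.03 in WT cells with rosiglitazone and 9.09, 9.59 and 9.59 in WT cells with DMSO. The groups overlapped in both, with -0.22 ± 0.18 (adjusted p = 0.59) in E157D cells and -0.48 ± 0.18 (adjusted p = 0.080) in WT cells. With the experiment number as a block, the WT difference passed the threshold (adjusted p = 0.011), and without the block it did so when WT rosiglitazone array 2 or WT DMSO array 1 was left out. Its other 2 probes read 5.39 to 6.64 and did not follow it: the probe pairs correlated at -0.20, 0.14 and 0.16, and the second probe had 0.33 ± 0.16 in WT cells, of opposite sign. Bax, the pore-forming partner of that pathway, had no probe with its symbol in the annotation used and is not analysed here.

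Trp53inp1 (chr4:11156441-11174379), which p53 induces and which promotes apoptosis and autophagy, fell with rosiglitazone in WT cells on both probes. The brighter read 10.07, 10.27 and 10.19 in E157D cells with rosiglitazone and 10.38, 10.48 and 10.55 in E157D cells with DMSO, without overlap. It read 9.89, 9.88 and 9.40 in WT cells with rosiglitazone and 10.26, 10.54 and 10.43 in WT cells with DMSO, also without overlap. The differences were -0.30 ± 0.14 (adjusted p = 0.32) in E157D cells and -0.69 ± 0.14 (1.61-fold lower, adjusted p = 0.0049) in WT cells. The dimmer probe read 7.17, 7.76 and 7.72 in WT cells with rosiglitazone and 8.59, 8.55 and 8.35 in WT cells with DMSO, and fell by 0.95 on the log2 scale (1.93-fold lower, adjusted p = 0.0014). Both WT calls held when any 1 of the 6 arrays was left out. In rosiglitazone, E157D cells were higher than WT cells by 0.45 ± 0.14 (adjusted p = 0.047) and 0.78 ± 0.16 (adjusted p = 0.0060). The call of the dimmer probe held without any 1 array, and that of the brighter was lost in 5 of 6 such fits (all but the fit without WT rosiglitazone array 2). In DMSO the differences were 0.06 and 0.11, neither called.

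Sesn1 (chr10:41810574-41908436) encodes sestrin 1, which restrains the growth kinase mTORC1 and counters oxidative stress. It had the largest fall of the members in WT cells, and its 3 probes correlated at 0.92 to 0.94. The brightest read 10.29, 10.61 and 10.59 in E157D cells with rosiglitazone and 10.98, 10.99 and 11.11 in E157D cells with DMSO. It read 9.67, 10.10 and 10.01 in WT cells with rosiglitazone and 10.71, 11.24 and 10.86 in WT cells with DMSO. In both cell types every rosiglitazone array lay below every DMSO array, and the WT rosiglitazone arrays were the lowest of the 12. The difference was -0.53 ± 0.16 (1.45-fold lower, adjusted p = 0.10) in E157D cells and -1.01 ± 0.16 (2.01-fold lower, adjusted p = 0.00089) in WT cells. With the experiment number as a block, the E157D difference of this probe passed the threshold. The other probes had -0.47 ± 0.19 and -0.47 ± 0.25 in E157D cells (neither called), and fell by 0.91 and 1.25 on the log2 scale in WT cells (adjusted p = 0.0043 and 0.0042). The last of these probes was detected on 1 of the 3 WT rosiglitazone arrays, so its size is uncertain. All 3 WT calls held without any 1 array. The difference between the responses was 0.48 ± 0.23 (95% interval -0.01 to 0.97, adjusted p = 0.36) on the brightest probe. In rosiglitazone, E157D cells were higher than WT cells by 0.57 ± 0.16 (adjusted p = 0.029), 0.60 ± 0.19 (0.044) and 0.89 ± 0.25 (0.030). These calls rest on single arrays: the first was lost without WT array 1 or E157D array 2 or 3, the second without any array but E157D array 1, and the third without WT array 1 or 2 or E157D array 2 or 3. In DMSO the 3 probes had 0.09, 0.15 and 0.11 and none was called.

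Phlda3 (chr1:135766085-135769134), a PH-domain protein that competes with the kinase Akt for membrane lipids, read higher with rosiglitazone on each probe in each cell type, without overlap. The brighter probe read 11.73, 11.73 and 12.26 in E157D cells with rosiglitazone and 11.39, 11.58 and 11.51 in E157D cells with DMSO. It read 12.22, 12.15 and 12.09 in WT cells with rosiglitazone and 11.83, 11.84 and 11.84 in WT cells with DMSO. E157D rosiglitazone array 3 stands above the other 2 of its group. The differences of this probe were 0.42 ± 0.14 (adjusted p = 0.15) in E157D cells and 0.32 ± 0.14 (adjusted p = 0.12) in WT cells, and neither was called. The dimmer probe read 10.00, 9.99 and 10.06 in WT cells with rosiglitazone and 9.53, 9.43 and 9.47 in WT cells with DMSO, and rose by 0.54 ± 0.10 (1.46-fold, adjusted p = 0.0025), a call that held without any 1 array. In E157D cells it had 0.21 ± 0.10 (adjusted p = 0.33). In rosiglitazone E157D cells were lower than WT cells by -0.50 ± 0.10 on that probe (adjusted p = 0.0058), and the brighter probe had -0.25 ± 0.14 (adjusted p = 0.26), called only without E157D rosiglitazone array 3 among the 6 fits that leave out 1 array. With median scaling the call of the dimmer probe was lost (adjusted p = 0.14).

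**Figure D2:**
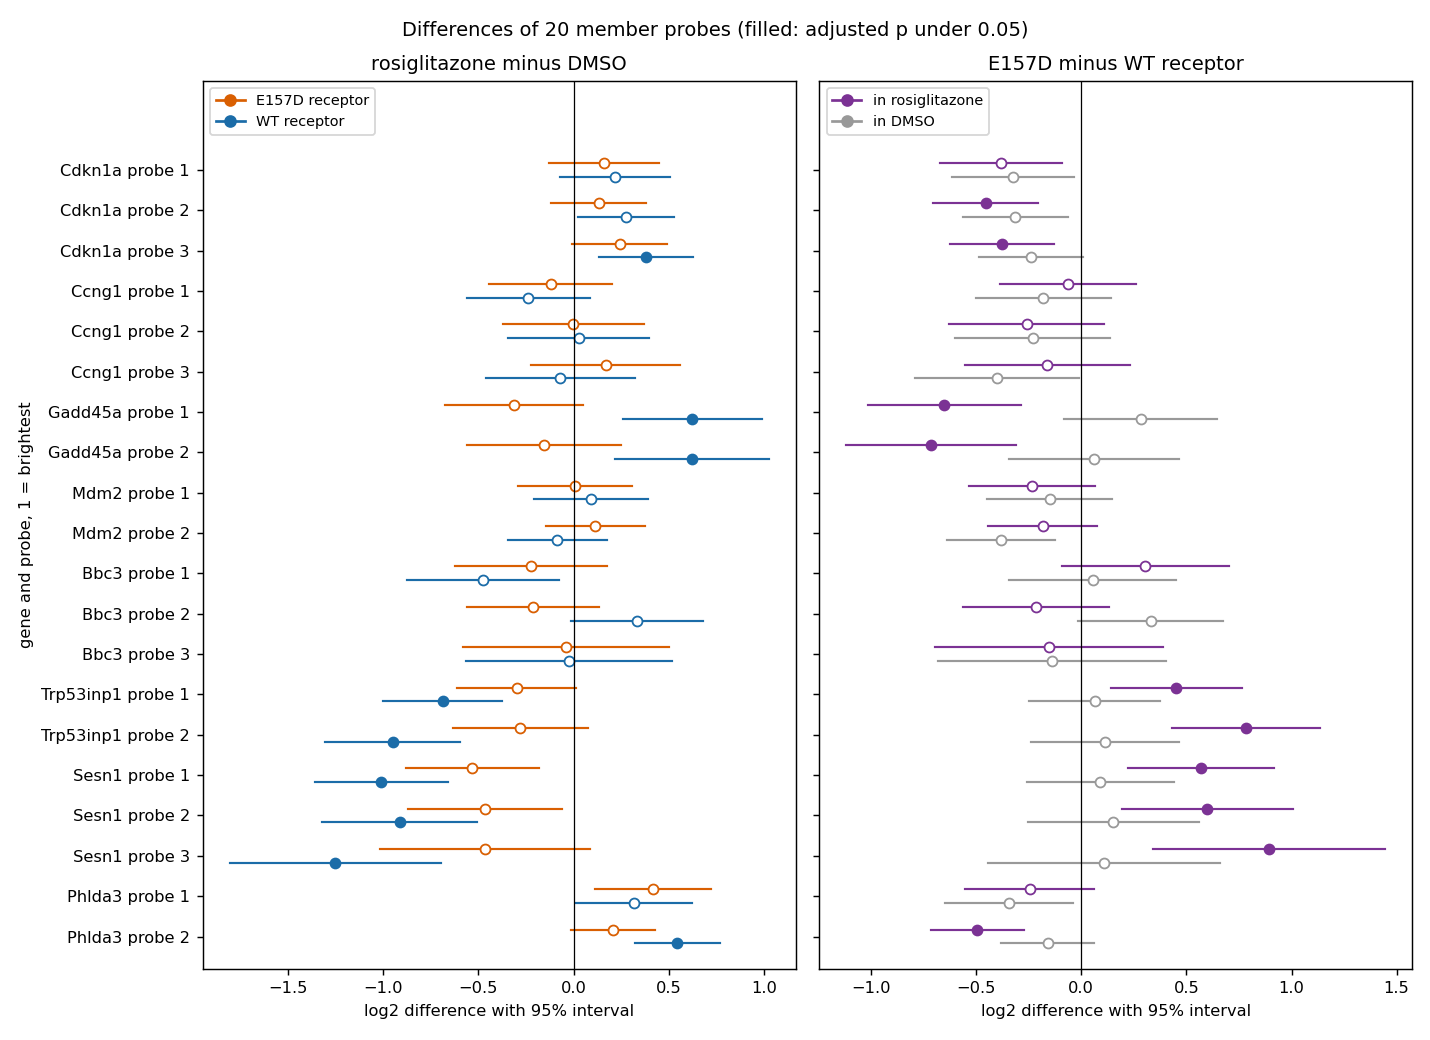
Differences in normalized log2 intensity with 95% intervals for the 20 member probes: rosiglitazone minus DMSO in E157D cells (upper of each pair) and WT cells (lower) on the left, and E157D minus WT in rosiglitazone (upper) and DMSO (lower) on the right; filled points passed an adjusted p of 0.05. All filled points on the left belong to WT cells, and all on the right to rosiglitazone.

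With rosiglitazone present, E157D cells and WT cells thus differed on 5 higher and 5 lower member probes of 20, beside 9.13% and 8.63% of all probes (17.8% in either direction). By the brightest probe Trp53inp1 and Sesn1 were higher and Gadd45a was lower. Their arrays did not overlap for 4 higher and 6 lower probes, beside 18.1% and 16.1% of all probes (34.2% in either direction). These values share the WT rosiglitazone arrays with the drug comparison in WT cells, so the opposite signs in the 2 comparisons are not separate observations. In DMSO, limma called 0 of the 20 member probes, beside 0.972% of all probes (0.359% higher and 0.613% lower), and 5 reached an unadjusted p under 0.05. All 6 probes without overlap were lower in E157D cells, beside 8.14% of all probes lower, 8.32% higher and 16.5% in either direction: the 3 of Cdkn1a, the second of Mdm2 and both of Phlda3.

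With rosiglitazone in WT cells, Trp53inp2, Gadd45b and Phlda1 moved opposite to the p53 target of their family. Phlda1 fell by 0.63 (adjusted p = 0.0115), where Phlda3 was called higher on 1 probe. Of 14 relatives tested, 4 rose and 2 fell with the drug in WT cells, beside 11.5% and 12% of all probes, and 0 were called in E157D cells (2 at an unadjusted p under 0.05), beside 3.28% of all probes. With the experiment number as a block, 4 rose and 3 fell in WT cells. Among the 4 that rose without the block was Bok (0.37, adjusted p = 0.0499), which lost its call with the experiment number as a block and without any 1 WT array but DMSO array 1. Trp53inp2, the paralogue of Trp53inp1 that acts in autophagy, read 8.01, 7.96 and 8.03 in E157D cells with rosiglitazone, 8.36, 8.11 and 8.04 in E157D cells with DMSO, 9.07, 8.96 and 9.04 in WT cells with rosiglitazone and 8.16, 8.27 and 8.46 in WT cells with DMSO. It was -0.17 ± 0.12 in E157D cells and rose by 0.73 ± 0.12 in WT cells (adjusted p = 0.0010), where Trp53inp1 fell. Gadd45b fell by 1.08 in WT cells (adjusted p = 0.00062), whereas Gadd45a and Gadd45g rose there. Gadd45g read 10.56, 10.64 and 10.28 in E157D cells with rosiglitazone, 11.14, 11.26 and 11.04 in E157D cells with DMSO, 12.06, 11.48 and 11.90 in WT cells with rosiglitazone and 11.43, 11.10 and 10.99 in WT cells with DMSO, so that the drug arrays were below the DMSO arrays in E157D cells and above them in WT cells. Its WT difference of 0.64 ± 0.17 (adjusted p = 0.017) was no longer called without WT rosiglitazone array 1 or 3 or WT DMSO array 2 or 3 (adjusted p 0.055 to 0.076). Tob1, the antiproliferative relative of Btg2, rose by 1.14 ± 0.16 in WT cells (adjusted p = 0.00045) and had 0.35 ± 0.16 in E157D cells. The other sestrins, named here after their values were seen, had in WT cells 0.76 ± 0.27 for Sesn2 and -0.73 ± 0.26 for Sesn3 (adjusted p = 0.058 and 0.060, and 0.011 and 0.010 with the experiment number as a block), and in E157D cells -0.08 and -0.14.

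**Figure D3:**
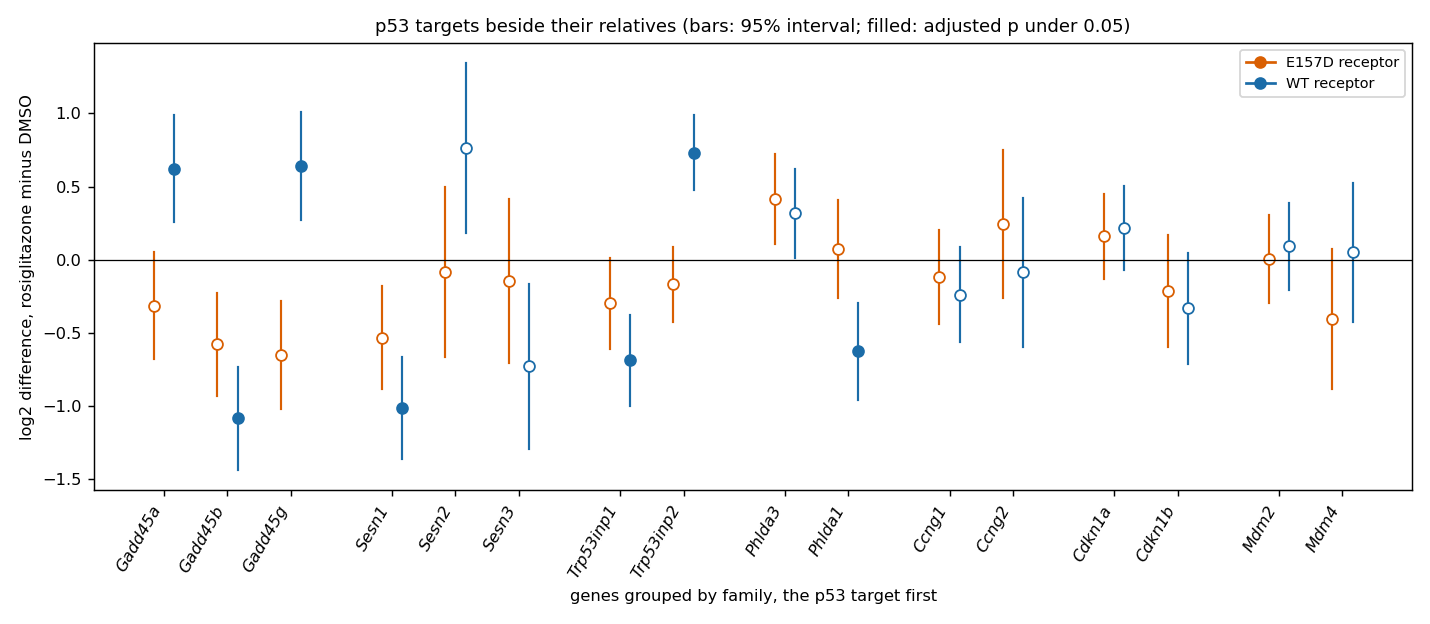
Difference in normalized log2 intensity, rosiglitazone minus DMSO, with 95% intervals in E157D cells (left of each pair) and WT cells (right), for 7 p53 targets and their relatives grouped by family; filled points passed an adjusted p of 0.05. In WT cells Trp53inp1 and Trp53inp2 lie on opposite sides of 0, and so do Gadd45b and the other 2 GADD45 genes.

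Among the wider p53 network, most called genes in WT cells fell with rosiglitazone, and Plk3, a stress-responsive kinase, was the exception in size. Of 16 other targets in arrest, repair and metabolism, 1 rose and 4 fell in WT cells, with a median of -0.25, beside 11.5% higher and 12% lower over all probes. With the experiment number as a block, 2 rose and 5 fell, Sesn2 and Polk (adjusted p = 0.011 and 0.010) being the 2 gained. Plk3 read 7.93, 7.33 and 7.76 in E157D cells with rosiglitazone, 7.57, 7.67 and 7.73 in E157D cells with DMSO, 10.06, 9.05 and 9.15 in WT cells with rosiglitazone and 7.94, 7.82 and 7.44 in WT cells with DMSO. It rose by 1.68 ± 0.25 in WT cells (adjusted p = 0.00054) and had 0.02 ± 0.25 in E157D cells. Of 10 other apoptotic targets, 1 rose and 4 fell in WT cells, beside the same shares, among them the death receptor Fas (-0.86, adjusted p = 0.0027) and the metalloreductase Steap3 (-0.83, adjusted p = 0.0013). In the BCL2 family, which Bbc3 acts on, 2 of 11 rose (1 with the block, without Bok) and 2 fell in WT cells, beside the same shares: Bcl2l13 rose by 0.91 and the BH3-only gene Bmf fell by 1.32 (adjusted p = 0.00013 and 0.0025). In E157D cells Bcl2l13 and Bid rose by 0.66 and 0.71 (adjusted p = 0.0056 and 0.0069). They were the only 2 of 69 genes called there in the 6 lists, that of the family relatives included, about the share of all probes (3.28%). Of the 69 genes, 12 had an unadjusted p under 0.05 there. Of 11 regulators and relatives of p53, only the relative Trp63 was called in WT cells (-0.85, adjusted p = 0.021). That call was lost without WT rosiglitazone array 1 or 3 or WT DMSO array 3, and the probe was detected on 8 of 12 arrays. Trp53 itself is not analysed here.

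Of 11 cell cycle genes that p21 lowers through the DREAM repressor complex, 0 rose and 4 fell with the drug in WT cells, with a median of -0.30, beside 11.5% higher and 12% lower over all probes, and 0 were called by limma in E157D cells, where 0 had an unadjusted p under 0.05. The survivin gene Birc5 fell by 0.57, the checkpoint kinase gene Bub1b by 0.60 and Cdk1 by 0.44 in WT cells (adjusted p = 0.0047, 0.0052 and 0.0094), and with median scaling these 3 calls and that of Top2a were lost (0.058, 0.059 and 0.22 for the 3). Between receptors under the drug, 6 of the 11 read above WT cells in E157D cells with a call and 0 below, beside 9.13% higher and 8.63% lower over all probes, where Cdkn1a was lower on 2 of its probes. Without WT rosiglitazone array 1 the receptor calls of Top2a and Birc5 were lost (adjusted p = 0.060 and 0.058). Whether the list and Cdkn1a are related was not tested.

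**Figure D4:**
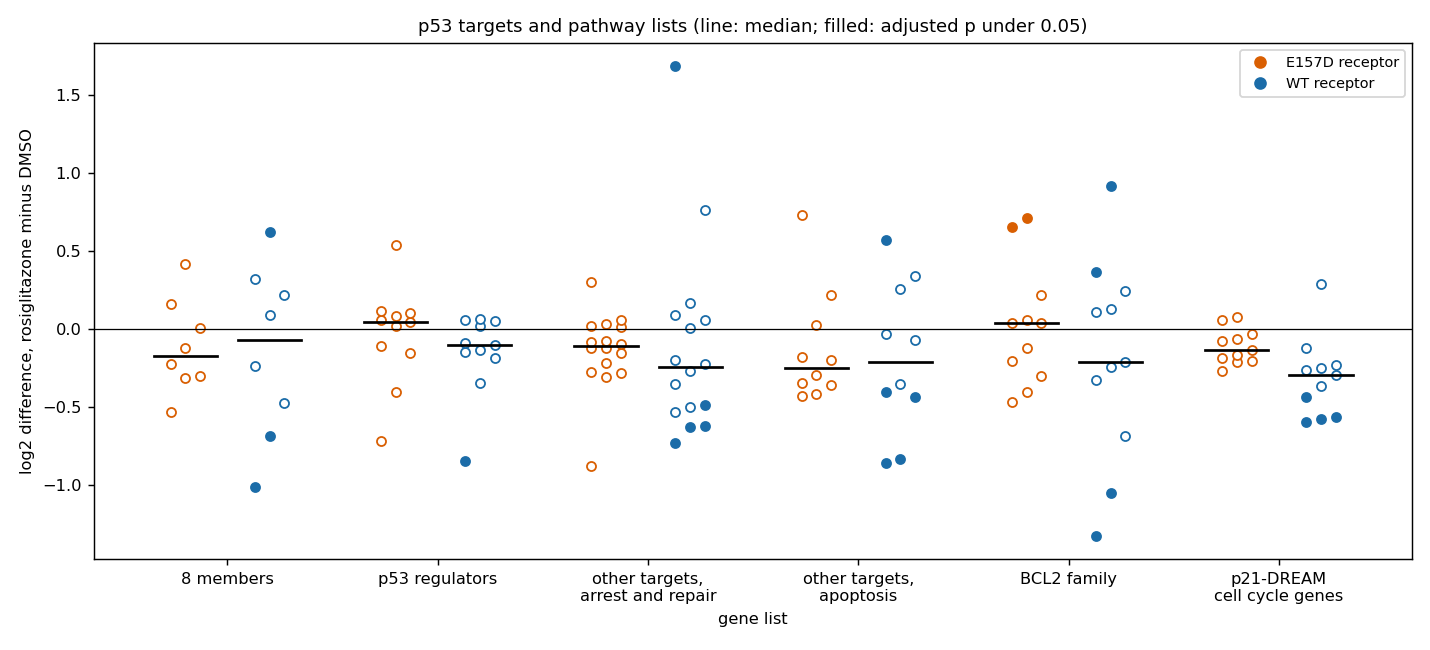
Difference in normalized log2 intensity, rosiglitazone minus DMSO, of the 8 detected members and of 5 lists of the p53 network in E157D cells (left) and WT cells (right); each point is a gene by its brightest probe, lines are medians, and filled points passed an adjusted p of 0.05. The filled points of E157D cells are Bcl2l13 and Bid, and the highest point is Plk3 in WT cells.

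Over the 12 arrays the brightest member probes did not vary as 1 group. Trp53inp1 and Sesn1 correlated at 0.88 and Bbc3 and Sesn1 at 0.87, while Cdkn1a went with Mdm2 (0.78) and Phlda3 (0.76) and against Sesn1 (-0.67). With each group's mean removed these became 0.27, 0.78, 0.67, 0.33 and -0.32. The values describe 12 arrays that share treatments and experiments, and carry no test. The genes most like a member over the arrays were, for Sesn1, Lox, Kiz and Mxra8 (Pearson 0.98 each), for Trp53inp1, Kiz (0.98) and Cnep1r1 (0.94), for Cdkn1a, Gys1 (0.95) and Arhgap20 (0.94), for Gadd45a, Plcb2 (0.95), for Phlda3, Dap3 (0.96), for Bbc3, Ifit3 (0.96), for Mdm2, Stam (0.88) and for Ccng1, Rida (0.89).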

How the data were processed

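The authors deposited a table of non-normalized probe intensities from 1-colour Illumina mouse arrays (biotin-labelled cRNA, per the labels), with a detection p-value for each probe and array, per the file headers. A second deposited table holds the authors' processed intensity values, of unstated method, and served as an alternative. Probes were named from the platform's annotation: 34885 of 45281 have 1 symbol, 18 have several and 10378 have none. The intensities were background-corrected with neqc (offset 16; the detection p-values stood in for negative control beads), quantile-normalized and put on a log2 scale (R 4.3.3, limma 3.58.1, statmod 1.5.0). The detection filter asked for p under 0.05 on 3 or more arrays and left 18921 probes. One limma fit with 4 group means (8 residual degrees of freedom) gave all comparisons, with Benjamini-Hochberg adjustment over all probes kept and calls at an adjusted p under 0.05. The fit was tried on simulated data with independent arrays, which cannot judge it where same-numbered arrays deviate together. Each gene is counted by its brightest probe past the filter. The number of arrays limits the precision. The members and lists were chosen with earlier results of these data known. Every member is named. List genes were drawn, for each list and comparison, from up to 4 called genes with the smallest p, or 2 where none is called. Not all genes that this rule gives are named. Sesn2, Sesn3, Polk and the genes with a full p53 site are named outside that rule. Same-numbered arrays of WT rosiglitazone and WT DMSO deviated together (correlations 0.11 to 0.22, a pairing read from the data), so the block is used there where it changes a call. In the other comparisons it is given where it changes a member call. The alternatives tried were other scaling, no background correction, the authors' values, other detection filters, 1 probe per gene, the experiment number as a block and leaving out each array.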

Additional observations from a re-analysis of the deposited data

Results flagged for a closer look

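The rosiglitazone responses of E157D and WT cells differed for 3 of 69 genes in the 6 lists, by limma's test of the difference. These lists cover the p53 network and the family relatives of the members. Gadd45g and Trp53inp2 below come from the list of relatives. Of the 69 genes, 18 had an unadjusted p under 0.05. Of the 20 member probes, 0 were called (6 at an unadjusted p under 0.05). The share of all probes called was 1.81%. For Plk3 the difference, E157D minus WT, was -1.67 ± 0.35 (log2 ± SE, adjusted p = 0.033), with 0.02 in E157D cells and 1.68 in WT cells. For Gadd45g it was -1.29 ± 0.24 (adjusted p = 0.019), with -0.65 in E157D cells and 0.64 in WT cells. For Trp53inp2 it was -0.90 ± 0.17 (adjusted p = 0.019), with -0.17 in E157D cells and 0.73 in WT cells. The Plk3 call held in 5 of 12 fits that leave out 1 array, and was lost without WT DMSO array 2 or 3, E157D rosiglitazone array 2 or 3 or any E157D DMSO array (adjusted p up to 0.084). The Gadd45g call was lost without WT rosiglitazone array 1, WT DMSO array 2 or 3 or E157D DMSO array 2 (up to 0.051), and that of Trp53inp2 without WT rosiglitazone array 1 (0.050). With median scaling the Trp53inp2 call was lost (adjusted p = 0.14), and with no detection filter the Plk3 call was lost (0.056).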

How the results depend on the processing

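No called direction of a member turned under any alternative. Counts of member genes called in WT cells were 5 without background correction and 6 with the authors' values, against 3. In E157D cells they were 2, 2 and, with the experiment number as a block, 1 (Sesn1, adjusted p = 0.037), against 0. Between receptors in rosiglitazone the count was 5 with the authors' values, against 3. For the difference between responses it was 1, Gadd45a, without background correction, with the authors' values, with probes detected on all 12 arrays and with the block (adjusted p = 0.028), against 0. Leaving out 1 array gave 2 to 4 member genes for the drug in WT cells, 0 to 3 between receptors in rosiglitazone and 0 to 1 for the difference between responses. Over all probes the block gave 944 for the drug in E157D cells and 298 between receptors in DMSO, against 621 and 184, and every other count it moved by less than 1.5 times. No background correction gave 1185, 281 and, for the difference between responses, 824; the authors' values gave 1125, 289 and 834; median scaling gave 220 for the last, against 342. Leaving out 1 array gave 2943 to 4133 probes for the drug in WT cells (4454 with all), 254 to 492 in E157D cells, 2006 to 2819 and 86 to 141 between receptors in rosiglitazone and DMSO (3360 in rosiglitazone with all), and 182 to 301 for the difference between responses.

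Median scaling moved the median of all probes between receptors to 0.17 in rosiglitazone and 0.12 in DMSO. It raised the share of calls that were higher to 78.4% from 59.3% for the drug in E157D cells, to 76.8% from 51.4% between receptors in rosiglitazone and to 56.4% from 37.0% in DMSO, and under it the lower calls of Cdkn1a, Gadd45a and Phlda3 between receptors were lost. The causes of these shifts were not tested. Same-numbered arrays correlated at 0.03 to 0.24 in the other 3 comparisons, and 11 of 12 arrays matched best with their own number outside their group, a hint from the data. The dimmest probe of Sesn1, detected on 10 arrays, is limited by signal over background.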
